A study of Rattus norvegicus with 6 samples.

Results

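The endoplasmic reticulum (ER) folding and stress genes are 46 genes, of 18237 in the count files, that encode the folding machinery of the ER and the signalling branches that respond when folding fails. They were chosen by symbol from a list of 48 names. Derl3 and Selenos were not among the gene names and were skipped, and all 46 others passed the filter on low counts and were tested. They were sorted by role into 9 ER chaperones, 9 disulfide enzymes, 10 genes of ER-associated degradation (ERAD), 7 stress sensors and activators, 6 genes of the ATF4 and CHOP arm and 5 genes of the translocon and of protein entry. Transcripts were counted by RNA-seq in cultured rat myocardial cells labelled NRVM, which commonly stands for ventricular myocytes of newborn rats. The growth notes name embryonic heart tissue as their source. The cells had received an siRNA against Mt2, a metallothionein gene (siMt2, n = 3 libraries), or a control siRNA (siNT, n = 3 libraries). Both groups share the medium with fetal serum, and the protocol text of both lists dexamethasone, insulin and isobutylmethylxanthine in a feeding schedule whose use on these cells is not stated.

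Proteins that enter the ER are bound by chaperones such as BiP (encoded by Hspa5), given disulfide bonds by protein disulfide isomerases that the ERO1 oxidases recharge, and, if they stay misfolded, pulled back into the cytosol by ERAD and degraded. Unfolded protein in the lumen activates the membrane sensors IRE1 (Ern1), ATF6 and PERK (Eif2ak3). IRE1 splices the Xbp1 transcript, ATF6 is cut by the proteases encoded by Mbtps1 and Mbtps2 and becomes a transcription factor, and PERK phosphorylates the initiation factor eIF2alpha, which favours translation of ATF4 and its partner CHOP (Ddit3). XBP1 and ATF6 are known to raise chaperone and ERAD transcripts, and ATF4 and CHOP to raise amino acid supply genes and the phosphatase subunit gene Ppp1r15a. Gene counts measure transcript levels only and do not show splicing of Xbp1, cleavage of ATF6 or phosphorylation of eIF2alpha.

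Library totals lay between 2859759 and 6817777 counts, with the lowest in siMt2 replicate 3, and values are given as CPM, the count relative to a common library total, after TMM scaling between libraries. The targeted transcript, Mt2a, stood at 70.7, 87.3 and 142 CPM in the siMt2 libraries and 90.7, 169.9 and 93.3 CPM in the siNT libraries. The groups overlapped (edgeR adjusted p = 0.631; log2 fold change -0.28, SE 0.42; 95% interval -1.42 to 0.87; exact two-sided permutation p = 0.5, where 0.1 is the smallest that 3 against 3 libraries allow). The knockdown was therefore not visible in this transcript, and the log2 fold change turned to 0.052 (edgeR adjusted p = 0.923) without siNT replicate 2. Groups are named by their labels throughout. Among 9 cardiomyocyte markers, 8 had at most 51 counts over all libraries, Myh6 and Actc1 with 9 and 4. The ninth, the cardiac troponin T gene Tnnt2, had 1201 counts and was higher at 57.5, 48.5 and 57.4 CPM in the siMt2 libraries and 28.2, 27.7 and 25.6 CPM in the siNT libraries (log2 fold change 1.01, SE 0.11, adjusted p = 1.81e-07). Summed fibroblast markers reached 9885 to 13857 CPM in the siMt2 libraries and 7601 to 7755 CPM in the siNT libraries. Of 8 tested, 6 were higher and 0 lower, and Pdgfra had 2 counts in all. Of these 6, Dcn and Lum had only 50 and 51 counts over all libraries. Col1a1 made up most of the sum, with a mean of 7795 CPM in siMt2 and 4701 CPM in siNT libraries. Col1a2 did not pass, at 327, 1151 and 238 CPM in the siMt2 libraries and 213, 480 and 312 CPM in the siNT libraries. Summed smooth muscle markers reached 3779 to 3876 CPM in the siMt2 libraries and 1852 to 1915 CPM in the siNT libraries (5 of 5 higher). Of 5 leukocyte and 5 endothelial markers, only Cd14 and Eng were tested, and both were lower. Of the skeletal muscle factors, Myod1 was higher (log2 fold change 0.46, SE 0.14) and Myog lower (log2 fold change -1.47, SE 0.37). The part that these marker differences play in the results below was not tested. In bulk RNA, fewer cells of a type and less RNA per cell cannot be told apart.

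Of the 46 genes, 17 rose and 10 fell in the siMt2 libraries (edgeR's quasi-likelihood test, Benjamini-Hochberg adjusted p under 0.05 over all 11726 genes tested), and 19 did not pass. Over all genes tested 50.9% passed, 25.8% higher and 25.1% lower, against 37.0% of the ER genes higher and 21.7% lower. The sets were not matched for abundance, and members were chosen with earlier results of these data known. The contrast therefore cannot be read as a trait of the ER genes. The median log2 fold change was 0.082 for the ER genes and 4.90e-04 for all genes. All siMt2 libraries lay above all siNT libraries for 22 of the 46 and below for 12, where 28.9% and 28.7% of all genes, 57.6% together, did so. By arm, the ATF4 and CHOP arm had 4 higher and 1 lower of 6, the sensors 4 higher and 1 lower of 7, and ERAD 1 higher and 3 lower of 10. The chaperones and the disulfide enzymes each had 3 higher and 2 lower of 9, and the translocon genes 2 higher and 1 lower of 5. Arms this small allow no statement beyond their counts. They also moved with single libraries. No ERAD gene passed as higher without siMt2 replicate 1 or siNT replicate 2 (0 in place of 1), and 2 did without siMt2 replicate 3. A sensor gene passed as lower without siMt2 replicate 2 (1), and none did without any other single library (0). Of the translocon genes, 1 passed as higher without siMt2 replicate 1, siMt2 replicate 2 or siNT replicate 2. Of the 27 genes that passed, 13 moved by less than 0.5 on the log2 scale and 7 by more than 1. The labels do not say whether replicates are separate cultures, and the p-values then reflect only how far these libraries scatter, which may be technical.

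**Figure D1:**
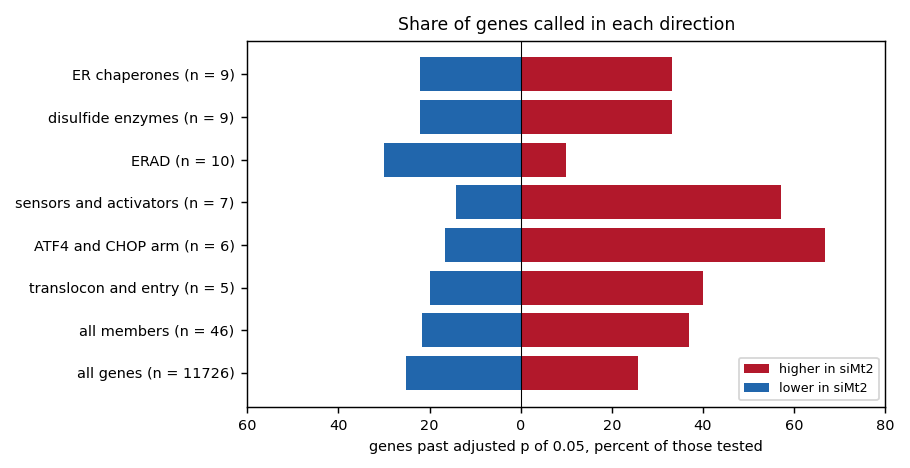
Percentage of tested genes past an adjusted p of 0.05, higher in siMt2 (right) and lower in siMt2 (left), for each arm, for the 46 ER genes and for all 11726 genes tested, with n the number tested. The ATF4 and CHOP arm and the sensors reach 66.7% and 57.1% on the right, the ERAD genes 30% on the left, and all genes are close to even at 25.8% and 25.1%.

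**Figure D2:**
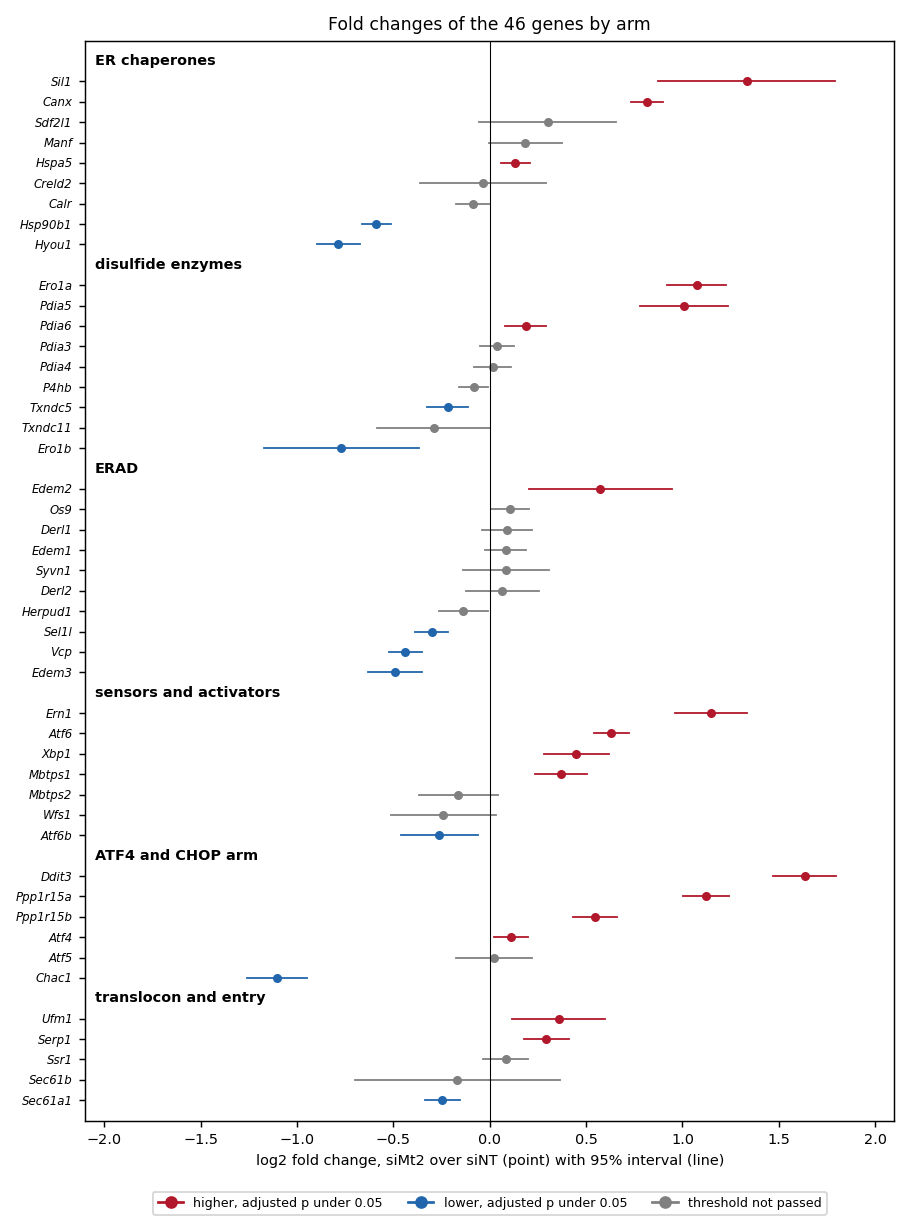
Log2 fold change of siMt2 over siNT with its 95% interval for each of the 46 genes, grouped by arm and coloured by the result of the edgeR test. Every arm holds genes on both sides of 0, with Ddit3 farthest to the right at 1.63 and Chac1 farthest to the left at -1.10.

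The ATF4 and CHOP arm held both the largest rise and the deepest fall of the 46 genes. Ddit3, which encodes the transcription factor CHOP, stood at 131, 137 and 148 CPM in the siMt2 libraries and 45.2, 46.6 and 42.0 CPM in the siNT libraries. The groups were far apart, with a fitted level in siMt2 of 3.10 times that in siNT (log2 fold change 1.63, SE 0.078, edgeR adjusted p = 9.66e-13). Ppp1r15a, whose product GADD34 directs a phosphatase to eIF2alpha and ends the translational block, stood at 208, 219 and 214 CPM in the siMt2 libraries and 99.9, 94.2 and 100.2 CPM in the siNT libraries. It was a little over doubled without overlap (log2 fold change 1.12, SE 0.057, adjusted p = 2.65e-12). Ppp1r15b, the constitutive counterpart CReP, reached 234, 242 and 257 CPM in the siMt2 libraries and 163, 162 and 174 CPM in the siNT libraries. Its rise was smaller than that of Ppp1r15a but also free of overlap (log2 fold change 0.55, SE 0.055, adjusted p = 6.74e-08).

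Chac1, a glutathione-degrading enzyme gene known as a target of the ATF4 and CHOP pathway, went the other way. It stood at 69.5, 66.9 and 56.7 CPM in the siMt2 libraries and 142, 144 and 136 CPM in the siNT libraries, so that every siMt2 library lay under every siNT library (log2 fold change -1.10, SE 0.075, adjusted p = 1.95e-10). Atf4 itself was nearly level at 462, 482 and 491 CPM in the siMt2 libraries and 443, 444 and 438 CPM in the siNT libraries. The groups did not overlap, but the difference was only 0.11 on the log2 scale (SE 0.042, adjusted p = 0.0316), and the edgeR call was lost without siMt2 replicate 2 or any siNT library (adjusted p = 0.0708 to 0.103) with no filter on low counts (0.0856) and in DESeq2 (0.120). Atf5, a related factor that is also translated under stress, overlapped at 346, 378 and 283 CPM in the siMt2 libraries and 337, 326 and 336 CPM in the siNT libraries (log2 fold change 0.021, SE 0.087, adjusted p = 0.862). Its siMt2 replicate 3 was the lowest of all libraries, and without it Atf5 passed as higher (0.12, adjusted p = 0.0181). Summed over the arm, levels were 1451, 1526 and 1450.1 CPM in the siMt2 libraries and 1231, 1216 and 1226 CPM in the siNT libraries.

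**Figure D3:**
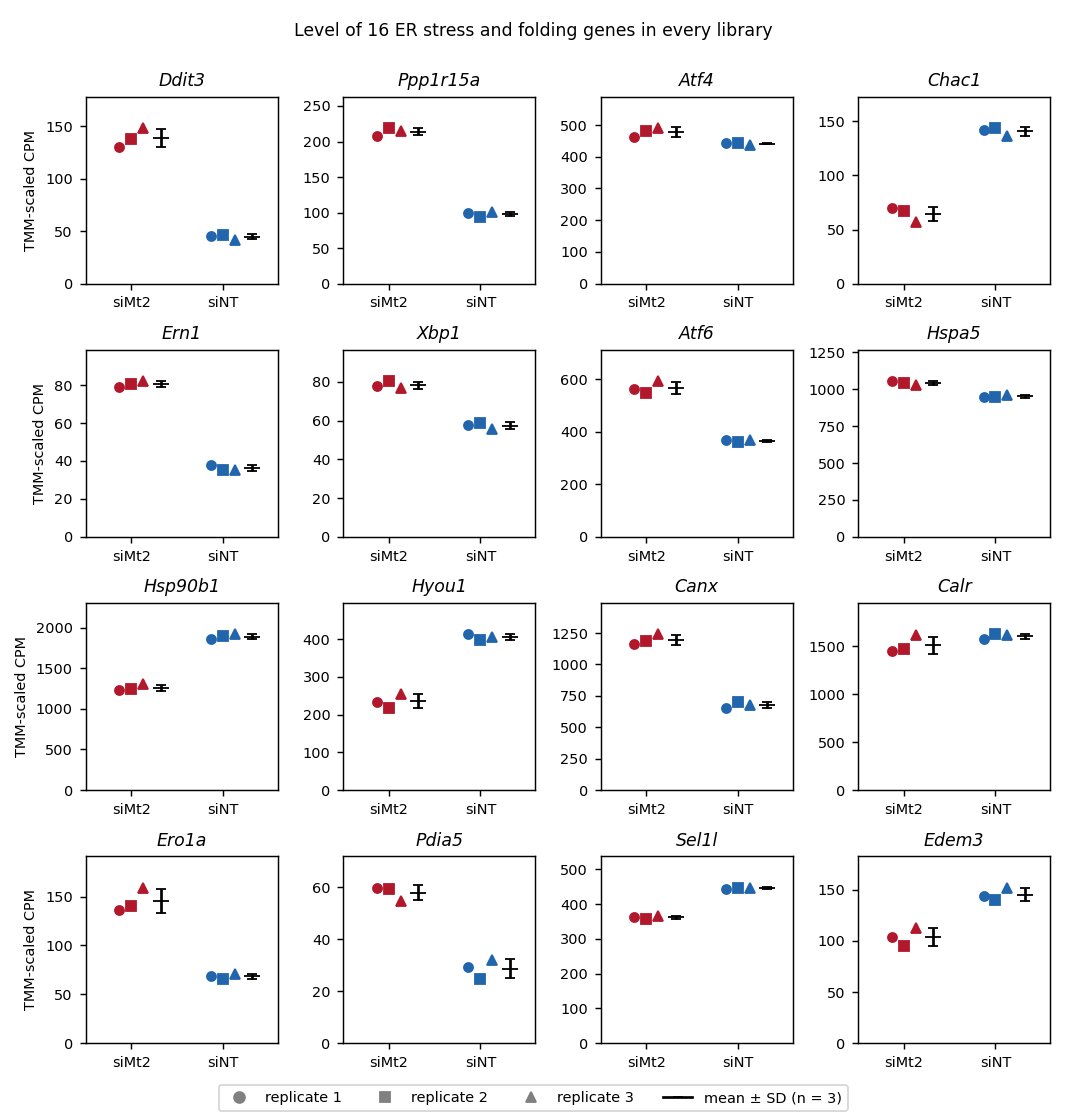
TMM-scaled CPM of 16 genes in each of the 3 siMt2 libraries (left, red) and 3 siNT libraries (right, blue), with the marker shape giving the replicate and the black bar the mean ± SD; each axis starts at 0. Ddit3, Ppp1r15a, Ern1, Ero1a and Pdia5 are at least doubled in siMt2, Chac1 is less than 0.5 times its siNT level, Hsp90b1 and Hyou1 are lower, and Hspa5, Atf4 and Calr are nearly level.

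Among the sensors and activators, Ern1, Xbp1, Atf6 and Mbtps1 were higher and Atf6b lower. Ern1, the gene of the kinase and nuclease IRE1, stood at 79.1, 80.6 and 82.1 CPM in the siMt2 libraries and 38.1, 35.1 and 35.4 CPM in the siNT libraries. The replicates of each group lay close together and the groups far apart (log2 fold change 1.15, SE 0.089, adjusted p = 1.50e-09). Xbp1, the transcript that IRE1 splices, was counted at 77.8, 80.4 and 76.8 CPM in the siMt2 libraries and 58.0, 59.0 and 55.5 CPM in the siNT libraries. Its rise was clear but smaller (log2 fold change 0.45, SE 0.081, adjusted p = 1.05e-04). Atf6, the gene of the membrane-bound transcription factor, reached 562, 548 and 593 CPM in the siMt2 libraries and 369, 361 and 367 CPM in the siNT libraries, again with no overlap (log2 fold change 0.63, SE 0.044, adjusted p = 2.46e-10).

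Mbtps1, the gene of the site-1 protease that makes the first cut in ATF6, rose to 146 ± 3.46 CPM in siMt2, against 113 ± 8.24 CPM in siNT libraries (SD, n = 3 each; log2 fold change 0.37, SE 0.064, adjusted p = 6.94e-05). Mbtps2, the site-2 protease gene that follows it, did not pass, at 52.6 ± 3.95 CPM in siMt2, against 58.4 ± 5.46 CPM in siNT libraries (SD, n = 3 each; log2 fold change -0.16, SE 0.10, adjusted p = 0.176). The paralog Atf6b lay at 63.6, 68.8 and 50.0 CPM in the siMt2 libraries and 72.6, 74.1 and 75.1 CPM in the siNT libraries. It passed as lower (log2 fold change -0.26, SE 0.10, adjusted p = 0.0283), with siMt2 replicate 3 the lowest, but the call was lost in 5 of the 6 fits that leave out a library (adjusted p = 0.0546 to 0.103; log2 fold change -0.16 without siMt2 replicate 3), in DESeq2 (0.0815) and under upper quartile scaling (0.0634). Wfs1, an ER membrane protein gene of the stress response, overlapped at 42.9, 41.9 and 27.5 CPM in the siMt2 libraries and 46.2, 41.3 and 48.3 CPM in the siNT libraries (log2 fold change -0.24, SE 0.13, adjusted p = 0.132). The remaining sensor gene, Eif2ak3 (PERK), belongs to the further pathway genes and overlapped at 43.1, 37.6 and 44.7 CPM in the siMt2 libraries and 49.3, 45.6 and 40.9 CPM in the siNT libraries (log2 fold change -0.12, SE 0.11, adjusted p = 0.393).

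The chaperones split. Such genes are known to be raised together when ATF6 and XBP1 are active, and whether these factors were active was not tested. Hspa5, the gene of the Hsp70 chaperone BiP and the usual marker of that response, stood at 1055, 1043 and 1032 CPM in the siMt2 libraries and 944, 949.6 and 964 CPM in the siNT libraries. The groups did not overlap, but the difference was small (log2 fold change 0.13, SE 0.036, adjusted p = 0.00492, 1.10 times the siNT level). Hsp90b1, the gene of the ER Hsp90 GRP94, lay at 1229, 1247 and 1303 CPM in the siMt2 libraries and 1863, 1896 and 1919.5 CPM in the siNT libraries. Every siMt2 library was lower than every siNT library, the siMt2 mean being 0.665 times the siNT mean (log2 fold change -0.59, SE 0.036, adjusted p = 4.59e-11). Hyou1, the gene of the ER Hsp110 that serves as a nucleotide exchange factor of BiP, fell to 236 ± 18.0 CPM in siMt2, against 405 ± 7.61 CPM in siNT libraries (SD, n = 3 each; log2 fold change -0.79, SE 0.052, adjusted p = 1.62e-10). Sil1, the other exchange factor gene of BiP, did the opposite at 16.9, 14.2 and 20.8 CPM in the siMt2 libraries and 5.06, 6.21 and 8.74 CPM in the siNT libraries (log2 fold change 1.33, SE 0.22, adjusted p = 4.14e-05), from counts of 26 to 116 per library.

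The lectin chaperones, which hold glycoproteins during folding, also differed from each other. Canx, the gene of membrane-bound calnexin, stood at 1162, 1189.5 and 1239 CPM in the siMt2 libraries and 656, 705 and 677 CPM in the siNT libraries. It was the clearest rise among the chaperones (log2 fold change 0.82, SE 0.041, adjusted p = 1.70e-12). Calr, the gene of its soluble counterpart calreticulin, overlapped at 1452, 1469 and 1614 CPM in the siMt2 libraries and 1576, 1624 and 1618 CPM in the siNT libraries. It did not pass (log2 fold change -0.089, SE 0.041, adjusted p = 0.0739, interval 0.887 to 0.997 times the siNT level), and passed as lower without siMt2 replicate 3 (-0.13, adjusted p = 8.27e-05), with no filter, after thinning to equal depth and in limma-voom (adjusted p = 0.0138, 0.0368 and 0.0244). Sdf2l1, a partner of BiP and its J proteins, did not pass (log2 fold change 0.30, SE 0.17, adjusted p = 0.150). The stress-induced genes Manf (log2 fold change 0.19, SE 0.090, adjusted p = 0.0943) and Creld2 (log2 fold change -0.036, SE 0.16, adjusted p = 0.865) did not pass either. Summed over the 9 genes, levels were 5250.0, 5277 and 5563 CPM in the siMt2 libraries and 5545, 5669.5 and 5683 CPM in the siNT libraries, which overlapped.

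Some promoters of these genes carry letters by which ATF6 and XBP1 are known to act, and genes that share an element did not all move in 1 direction. RefSeq promoters (build GRCr8, 250 bases before to 50 after the gene start) were matched for 37 of the 46 genes. The ER stress element was searched on both strands as CCAAT and CCACG with any 9 bases between them. It was found in 7 of these 37 promoters (18.9%). The share was 21 of 27457 RefSeq promoters of the same length (0.0765%), and 15 of the 8574 that belong to tested genes (0.175%). The element was originally described on promoters of such chaperone genes, so its presence here is background and not a result of these libraries. The matches are given here 5′ to 3′ on the strand that reads them forward, with the fixed letters in capitals, because the 7 genes include 3 that rose, 2 that fell and 2 that did not pass.
Hspa5, higher: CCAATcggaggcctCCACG
Canx, higher: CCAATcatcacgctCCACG
Xbp1, higher: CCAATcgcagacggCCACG
Hsp90b1, lower, upstream match: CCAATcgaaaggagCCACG
Hsp90b1, lower, match nearer the start: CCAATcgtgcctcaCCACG
Ero1b, lower: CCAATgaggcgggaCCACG
Calr, not past the threshold: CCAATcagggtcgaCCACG
Creld2, not past the threshold: CCAATtgaggctcgCCACG
The related element ERSE-II was searched on both strands as ATTGG and CCACG with any 1 base between them. It was found in Hyou1, which fell and holds 2 matches, and in Herpud1, which did not pass. These are 2 of 37 (5.41%), against 0.0546% of all promoters and 0.105% of those of tested genes. The UPR element TGACGTGG was found in Hyou1, where it overlaps an ERSE-II match, and in Vcp and Txndc11. Its share was 8.11%, against 0.637% of all promoters and 0.956% of those of tested genes. A plain CCAAT box, which every ER stress element match contains, was found in 67.6% of the 37 promoters. It was found in 37.7% of all promoters and 38.5% of those of tested genes.

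The full windows of the chaperone pair that moved apart are given with the elements in capitals as they read on the gene's strand. The Hspa5 window (GRCr8 chr3:38452766-38453065, plus strand) holds 1 match, which ends 24 bases before the gene start. The Hsp90b1 window (GRCr8 chr7:23012244-23012543, minus strand) holds 2 matches, which end 157 and 53 bases before it, the nearer of them in the reverse orientation.
Hspa5: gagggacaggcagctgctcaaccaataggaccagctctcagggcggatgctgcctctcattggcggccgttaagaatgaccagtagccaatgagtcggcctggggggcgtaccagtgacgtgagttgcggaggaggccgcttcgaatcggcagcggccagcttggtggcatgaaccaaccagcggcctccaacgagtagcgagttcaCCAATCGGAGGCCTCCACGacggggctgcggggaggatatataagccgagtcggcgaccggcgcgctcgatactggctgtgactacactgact
Hsp90b1: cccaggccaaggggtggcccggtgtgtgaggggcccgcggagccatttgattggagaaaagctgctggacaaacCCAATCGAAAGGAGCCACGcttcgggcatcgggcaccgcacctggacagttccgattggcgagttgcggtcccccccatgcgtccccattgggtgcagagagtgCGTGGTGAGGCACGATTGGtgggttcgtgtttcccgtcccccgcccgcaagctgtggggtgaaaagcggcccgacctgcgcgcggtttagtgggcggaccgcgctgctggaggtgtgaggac
The letters TGATGNAA, the core of the response element bound by ATF4 with C/EBP partners, were searched in the same way. They were found in 3 of 37 promoters (8.11%), against 3.82% of all promoters and 1.8% of those of tested genes. The 3 were Chac1, Ppp1r15b and Herpud1, each time as TGATGcAA. Of these, Ppp1r15b rose, Chac1 fell and Herpud1 did not pass. The Chac1 window (GRCr8 chr3:126795881-126796180, plus strand) is shown because Chac1 had the deepest fall of the arm; the capitals mark the match, which reads in reverse on this strand and ends 159 bases before the gene start.
Chac1: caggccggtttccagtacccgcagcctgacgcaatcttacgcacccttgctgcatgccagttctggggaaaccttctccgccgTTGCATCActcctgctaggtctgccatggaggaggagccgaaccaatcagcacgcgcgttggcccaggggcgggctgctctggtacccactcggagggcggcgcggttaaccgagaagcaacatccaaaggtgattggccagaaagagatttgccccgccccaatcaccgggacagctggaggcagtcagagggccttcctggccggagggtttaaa
A match is a description of letters and not evidence of binding in these cells. Like those of the ER stress element, the shares of the other elements are background and not a result of these libraries.

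The disulfide enzymes included a pair of oxidases that moved in opposite directions. Ero1a, the gene of the widely expressed ER oxidase that is also known to be induced by low oxygen, stood at 136, 141 and 159 CPM in the siMt2 libraries and 68.8, 65.2 and 70.7 CPM in the siNT libraries. It was about doubled, with siMt2 replicate 3 the highest (log2 fold change 1.07, SE 0.073, adjusted p = 2.17e-10). Ero1b, the gene of the oxidase best known from secretory cells such as pancreatic beta cells, was scarce at 9.64, 12.3 and 9.16 CPM in the siMt2 libraries and 21.9, 15.1 and 16.1 CPM in the siNT libraries. The groups did not overlap and it passed as lower (log2 fold change -0.77, SE 0.19, adjusted p = 0.00228). Pdia5, a protein disulfide isomerase gene, was also about doubled at 59.9, 59.1 and 54.6 CPM in the siMt2 libraries and 29.3, 24.6 and 31.9 CPM in the siNT libraries (log2 fold change 1.01, SE 0.11, adjusted p = 1.89e-07).

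The abundant isomerases were nearly level. Pdia6 rose by 0.19 on the log2 scale (SE 0.051, adjusted p = 0.00444), at 367 ± 17.0 CPM in siMt2, against 322 ± 17.4 CPM in siNT libraries (SD, n = 3 each), and the thioredoxin-domain gene Txndc5 fell (log2 fold change -0.22, SE 0.051, adjusted p = 0.00138), at 225 ± 8.04 CPM in siMt2, against 263 ± 10.1 CPM in siNT libraries. Pdia3, the isomerase that works with calnexin and calreticulin, was at 637, 622 and 680.0 CPM in the siMt2 libraries and 631, 628 and 625 CPM in the siNT libraries. The groups overlapped, and its 95% interval ran from 0.967 to 1.09 times the siNT level (adjusted p = 0.457). The interval of Pdia4 ran from 0.946 to 1.08 times the siNT level (adjusted p = 0.812). P4hb, the gene of the isomerase PDI itself, stood at 1102, 1100.5 and 1100.5 CPM in the siMt2 libraries and 1142, 1174 and 1182 CPM in the siNT libraries; the groups did not overlap, yet the difference of -0.083 (SE 0.036) missed the threshold (adjusted p = 0.0608). P4hb passed as lower without siMt2 replicate 3 (adjusted p = 0.0235) or siNT replicate 1 (adjusted p = 0.0472). It also passed as lower with no filter, after thinning to equal depth and in limma-voom (adjusted p = 0.0326, 0.0287 and 0.0281). Txndc11 did not pass (log2 fold change -0.29, SE 0.14, adjusted p = 0.0887), but did with the replicate number as a block (-0.32, adjusted p = 0.0445) and without siNT replicate 3 (-0.44, adjusted p = 0.0181).

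Of the 10 ERAD genes, 3 fell and 1 rose (30% and 10%, against 25.1% and 25.8% of all genes), while the log2 fold change of 6 lay above 0 and the median was 0.073. Vcp, the gene of the ATPase p97 that pulls substrates out of the membrane, stood at 412, 433 and 423 CPM in the siMt2 libraries and 565, 570.0 and 581 CPM in the siNT libraries. All siMt2 libraries were lower, with little spread (log2 fold change -0.44, SE 0.042, adjusted p = 2.98e-08). Sel1l, the adaptor of the HRD1 ubiquitin ligase complex, stood at 362, 358 and 364 CPM in the siMt2 libraries and 443, 447 and 448 CPM in the siNT libraries and was lower too (log2 fold change -0.30, SE 0.042, adjusted p = 5.17e-06). Edem3, a mannosidase gene that marks misfolded glycoproteins for degradation, fell to 104 ± 8.58 CPM in siMt2, against 145 ± 6.32 CPM in siNT libraries (SD, n = 3 each; log2 fold change -0.49, SE 0.068, adjusted p = 4.29e-06). Its relative Edem2, scarce at 23.4, 18.0 and 15.5 CPM in the siMt2 libraries and 14.4, 11.0 and 13.5 CPM in the siNT libraries, was the one ERAD gene that passed as higher (log2 fold change 0.57, SE 0.18, adjusted p = 0.0105). That call was lost without siMt2 replicate 1 (0.37, adjusted p = 0.146) or siNT replicate 2 (0.0550) and in DESeq2 (0.0734).

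Edem1, the member of this family best known as an XBP1 target, did not pass (log2 fold change 0.083, SE 0.051, adjusted p = 0.189). Syvn1, the gene of the ligase HRD1, had an interval of 0.907 to 1.24 times the siNT level (adjusted p = 0.545). The channel genes Derl1 (log2 fold change 0.090, SE 0.063, adjusted p = 0.251) and Derl2 (log2 fold change 0.065, SE 0.091, adjusted p = 0.579), the lectin gene Os9 (log2 fold change 0.11, SE 0.047, adjusted p = 0.0683) and the stress-induced Herpud1 (log2 fold change -0.14, SE 0.060, adjusted p = 0.0660) did not pass either. Without siMt2 replicate 3, Os9 passed as higher (0.11, adjusted p = 0.0410) and Herpud1 as lower (-0.14, adjusted p = 0.0395). Herpud1 also passed as lower without siNT replicate 2 (-0.18, adjusted p = 0.0380), with no filter (0.0316) and after thinning to equal depth (0.0478). Os9 also passed as higher under upper quartile scaling (adjusted p = 0.0134) and with a stricter filter (0.0487). Selenos, which encodes a membrane protein that tethers p97 and was skipped because its symbol is absent, has the older name Vimp in the RefSeq table of synonyms. The row named Vimp stood at 76.9, 79.5 and 83.8 CPM in the siMt2 libraries and 32.2, 33.0 and 29.4 CPM in the siNT libraries, a clear rise (log2 fold change 1.34, SE 0.094, adjusted p = 3.29e-10), and is counted in no total here. ERAD genes summed to 1818, 1812 and 1831 CPM in the siMt2 libraries and 2074, 2037 and 2067 CPM in the siNT libraries. The total was lower in every siMt2 library, with Vcp and Sel1l, the genes described first, the largest differences in CPM.

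At the translocon, through which proteins enter the ER, the 5 listed genes changed by -0.25 to 0.36 on the log2 scale. Further translocon genes, given below, included larger changes. Sec61a1, the gene of the main channel subunit, fell to 383 ± 14.9 CPM in siMt2, against 454 ± 6.65 CPM in siNT libraries (SD, n = 3 each; log2 fold change -0.25, SE 0.044, adjusted p = 1.08e-04). Serp1, a small translocon-associated protein gene, rose to 251 ± 16.9 CPM in siMt2, against 205 ± 6.98 CPM in siNT libraries (log2 fold change 0.29, SE 0.056, adjusted p = 1.96e-04). Ufm1, the gene of the ubiquitin-like modifier that is attached to ribosomes at the ER, passed as higher (log2 fold change 0.36, SE 0.12, adjusted p = 0.0138), a call lost without siMt2 replicate 1, siMt2 replicate 2 or siNT replicate 2 (adjusted p = 0.0618, 0.0511 and 0.0800) and in DESeq2 (0.0995). Ssr1, a subunit gene of the translocon-associated protein complex, had an interval of 0.978 to 1.15 times the siNT level (adjusted p = 0.224). Sec61b stood at 65.4, 58.2 and 32.8 CPM in the siMt2 libraries and 63.0, 59.3 and 60.2 CPM in the siNT libraries. Only siMt2 replicate 3 was apart from the others, and the log2 fold change was -0.17 with it and 0.034 without it (adjusted p = 0.564 and 0.779).

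Quotients of CPM within a library do not depend on how libraries are scaled, and they show the splits directly. The pairs were chosen after their values were seen, so they are descriptions with no test, and since gene length is not accounted for only the change between groups can be read. Hsp90b1 over Hspa5 was 1.17, 1.20 and 1.26 in the siMt2 libraries and 1.97, 2.00 and 1.99 in the siNT libraries. Canx over Calr was 0.800, 0.810 and 0.768 in the siMt2 libraries and 0.416, 0.434 and 0.419 in the siNT libraries. Ddit3 over Atf4 was 0.282, 0.285 and 0.302 in the siMt2 libraries and 0.102, 0.105 and 0.0958 in the siNT libraries, so every siMt2 library had more CHOP transcripts relative to those of ATF4 than any siNT library. Ddit3 over Chac1 was 1.88, 2.05 and 2.61 in the siMt2 libraries and 0.318, 0.324 and 0.309 in the siNT libraries. Ero1a over Ero1b was 14.1, 11.4 and 17.4 in the siMt2 libraries and 3.15, 4.33 and 4.39 in the siNT libraries. None of the 8 quotients computed overlapped between groups.

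**Figure D4:**
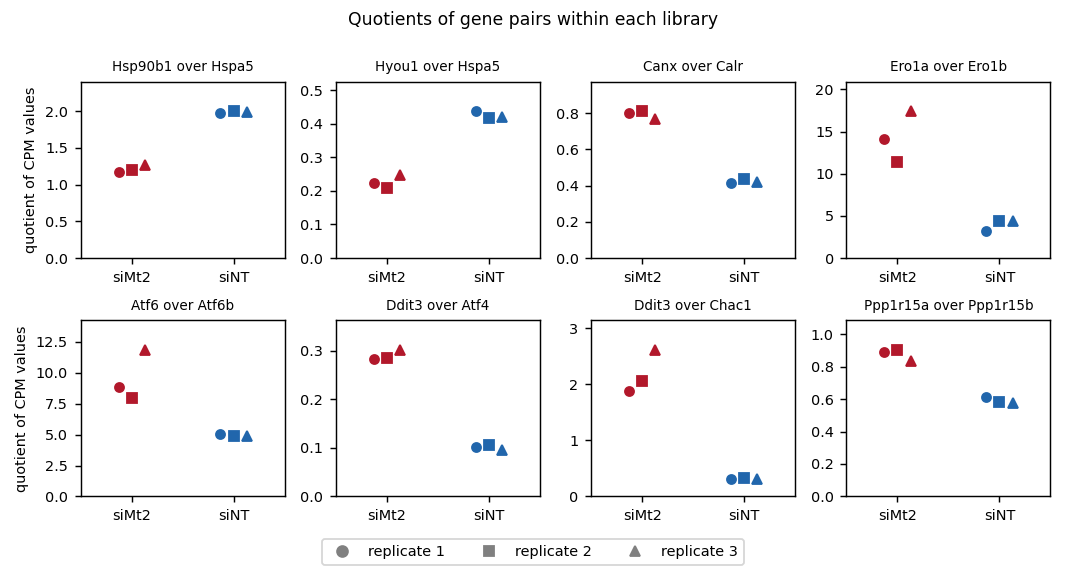
Quotient of the CPM of 2 genes within each library, for 8 pairs, in the 3 siMt2 libraries (left, red) and the 3 siNT libraries (right, blue); marker shapes give the replicate and axes start at 0. Quotients of Hsp90b1 and Hyou1 over Hspa5 are lower in siMt2 and the other 6 are higher, with no overlap in any panel.

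Further genes of the same pathways, from lists drawn up by role, also held genes higher and genes lower. Of 112 tested, 39 rose and 36 fell (34.8% and 32.1%, against 25.8% and 25.1% of all genes). The lists were chosen with earlier results of these data known, so this contrast is a description and not a test. Among 20 other ATF4 and CHOP targets 9 rose and 4 fell. The cystine carrier gene Slc7a11 rose to 472 ± 9.51 CPM in siMt2, against 268 ± 16.9 CPM in siNT libraries (SD, n = 3 each; log2 fold change 0.82, SE 0.050), and the mitochondrial PEP carboxykinase gene Pck2 (log2 fold change 1.54, SE 0.095) and the amino acid carrier gene Slc7a5 (log2 fold change 0.43, SE 0.043) rose too, while the serine synthesis gene Phgdh fell (log2 fold change -0.46, SE 0.057). Asns, a standard marker of ATF4 activity named outside the rule, was lower (log2 fold change -0.24, SE 0.045, edgeR adjusted p = 1.48e-04). It stood at 328, 330.1 and 338 CPM in the siMt2 libraries and 379.7, 403 and 393 CPM in the siNT libraries. Also outside the rule, Ddit4 (log2 fold change 0.62, SE 0.083), Trib3 (0.48, SE 0.12) and Psat1 (0.21, SE 0.048) rose. Shmt2 (0.18, SE 0.069), Sesn2 (0.16, SE 0.056) and Vegfa (0.13, SE 0.042) rose less, while Cebpb (-0.70, SE 0.25) and Atf3 (-0.54, SE 0.15) fell. The groups overlapped for Shmt2, with siMt2 replicate 3 at 286 CPM against 279 to 301 CPM in the siNT libraries. Cebpb was scarce, at 3.87 to 9.81 CPM over all libraries. Among the eIF2alpha kinase genes and their partners 1 rose and 2 fell of 6: Eif2ak1, the gene of the heme-regulated kinase, fell (log2 fold change -0.72, SE 0.075), Eif2ak2, the gene of the kinase PKR, fell (log2 fold change -0.22, SE 0.058) and Dnajc3, the gene of the PERK inhibitor p58IPK, rose (log2 fold change 0.22, SE 0.080).

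Other folding factors of the lumen and membrane rose in 7 of 29 cases and fell in 12 (24.1% and 41.4%, against 25.8% and 25.1% of all genes). The disulfide reductase gene Dnajc10 (log2 fold change -0.80, SE 0.053), the cyclophilin gene Ppic (log2 fold change -0.53, SE 0.049) and the thioredoxin-related Tmx3 (log2 fold change -0.42, SE 0.046) fell and Cnpy2 rose (log2 fold change 0.85, SE 0.10). Other ERAD genes were evenly split, with 7 of 21 higher and 7 lower (33.3% each). Erlin1, part of a membrane complex that targets calcium channels for degradation, rose to 330.4 ± 14.6 CPM in siMt2, against 135 ± 1.87 CPM in siNT libraries (SD, n = 3 each; log2 fold change 1.29, SE 0.052), while the mannosidase gene Man1b1 (log2 fold change -0.55, SE 0.047) and Bag6 (log2 fold change -0.62, SE 0.064) fell. Of 22 further translocon, signal peptidase and glycosylation genes 9 rose and 8 fell (40.9% and 36.4%). Ssr2 (log2 fold change 1.02, SE 0.068), the alternative channel gene Sec61a2 (log2 fold change 0.84, SE 0.083) and the oligosaccharyltransferase gene Ostc (log2 fold change 0.78, SE 0.087) rose, and Ddost, of the same transferase, fell (log2 fold change -0.43, SE 0.050).

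Among 14 other stress transducers 6 rose and 3 fell (42.9% and 21.4%, against 25.8% and 25.1% of all genes). Creb3l2, which encodes an ER membrane transcription factor that is cut like ATF6, stood at 75.8, 76.1 and 77.5 CPM in the siMt2 libraries and 36.1, 35.4 and 37.2 CPM in the siNT libraries, about doubled (log2 fold change 1.07, SE 0.089, adjusted p = 4.35e-09), and its relative Creb3l1 rose as well (log2 fold change 0.46, SE 0.079). Ufc1, the gene of the enzyme that conjugates UFM1, fell (log2 fold change -0.62, SE 0.10). The edgeR adjusted p of the genes named from these lists as having risen or fallen was at most 0.0432.

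**Figure D5:**
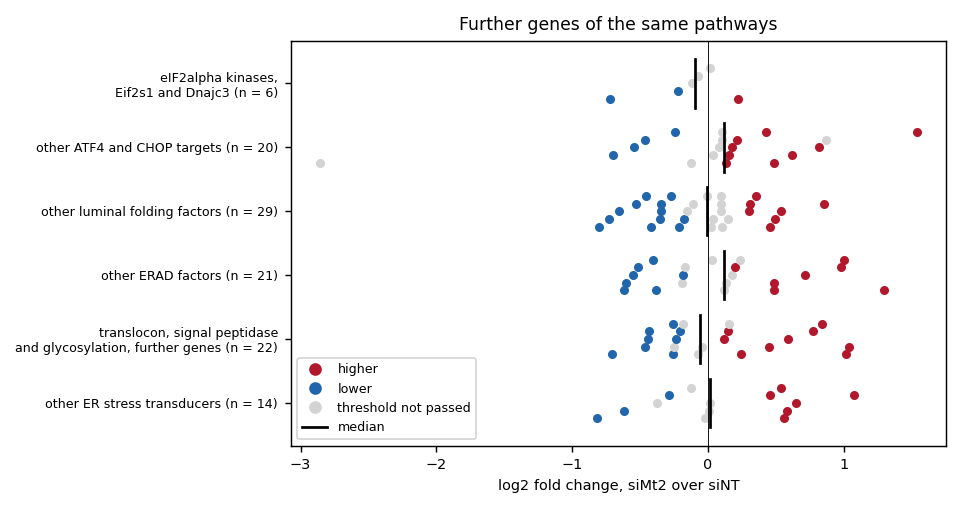
Log2 fold change of siMt2 over siNT for each of the 112 further pathway genes tested, by list, coloured by the result of the edgeR test, with a black line at each list's median. Rises and falls lie on both sides of 0 in every list, and the medians lie between -0.095 and 0.12; the grey point at -2.85 is Aldh18a1, for which siNT replicate 3 stood apart at 53.5 CPM against 2.13 to 5.24 CPM in the other libraries.

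The median coefficient of variation of the 46 genes was 5.06% in siMt2 and 3.71% in siNT libraries, against 9.82% and 7.73% over all genes tested. The 2 sets were not matched for abundance, so the contrast cannot be read as a trait of the ER genes. Single members ran from 0.068% (P4hb) to 32.9% (Sec61b) in siMt2 and from 0.525% (Pdia3) to 28.2% (Sil1) in siNT libraries. Member counts ran from 26 to 12524 per library, and the smallest carries a counting error of 19.6%. In siMt2 the second principal component of all genes set replicate 3 apart (-26.4, against 9.57 and 18.8 in siMt2 replicates 1 and 2). That library was the highest of its group for 24 of the 46 genes and the lowest for 15. It lay -47.0%, -35.2%, -26.7%, -25.0% and -24.5% from the mean of the other siMt2 libraries for Sec61b, Wfs1, Creld2, Edem2 and Atf6b, and 33.5% from it for Sil1. Without it 19 of the 46 genes rose and 12 fell, and of all 12154 genes then tested 3162 rose and 3092 fell. Of the 19 genes that did not pass in the full comparison, 15 had a 95% interval within 1.3-fold of the siNT level in either direction, and 4 had wider intervals.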

How the data were processed

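RNA of cultured rat cells was sequenced in 6 libraries, 3 per group, with groups and replicate numbers read from the sample titles. For each library the authors deposited unnormalized integer counts per gene. The submitters' processing notes list featureCounts, HISAT2 2.2.1, Trimmomatic 0.40, DESeq2, limma and the build rn6, with no settings; strand use and the treatment of multi-mapping reads are not given in the sources used here, so genes with near-identical copies are uncertain. Of 18237 rows, 25 had names turned into dates (0.260% of counts); they stayed in all fits. Here 0 columns were without a sample.

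Counts were fitted in R 4.3.3 with edgeR 4.0.16: filterByExpr (minimum count 10), TMM, robust quasi-likelihood test, two-sided, Benjamini-Hochberg over the 11726 genes tested, threshold 0.05. Log2 fold changes are siMt2 over siNT, with 95% intervals from the fit. The procedure was tested on simulated data. Totals of 2859759 to 6817777 counts make 3 counts equal to 0.438 to 1.06 CPM. Members and lists were chosen with earlier results of these data known. All members the files hold are named. Levels, per library or as mean ± SD, are given for most of the up to 5 members per arm with the smallest adjusted p. Some other members have them too. Of each further list up to 4 genes are named by the rule. Eif2ak3 and the other called genes among the ATF4 and CHOP targets are named besides. Same-numbered libraries did not deviate together across genes (r = -0.060 to 0.023), so the numbers were not used as pairs. Alternatives were other scalings, filters, DESeq2 1.42.0, limma-voom (limma 3.58.1), thinning to equal depth, the block, and each library left out. Promoters came from RefSeq (GRCr8). Some genes that the rule for named genes picked from the further lists are not reported here.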

Additional observations from a re-analysis of the deposited data

How the results depend on the processing

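Counts of called genes among the 46 and over all genes stayed within 1.5 times the values reported under all 14 alternatives: 14 to 20 of the 46 ER genes were higher and 9 to 14 lower. Of the arms, ERAD had 0 (DESeq2) to 3 (upper quartile scaling) genes higher. Of the 27 genes called, 23 passed in the same direction in every alternative, and the other 4 (Atf4, Atf6b, Edem2, Ufm1) are given with their values in the report. Calr, Manf, P4hb, Txndc11, Edem1, Herpud1, Os9, Wfs1 and Atf5 did not pass but did under at least 1 alternative. With the replicate number as a block, 17 were higher and 11 lower, and only the call of Txndc11 changed; same-numbered libraries correlated by r = -0.0018, -0.060 and 0.023, so the block has no support as a pairing. Upper quartile scaling moved the median of all genes by 0.039 on the log2 scale and gave 20 higher and 9 lower. Leaving out libraries 1 at a time gave 14 to 19 higher and 9 to 12 lower ER genes, 2601 to 3162 higher and 2481 to 3092 lower genes over all, and a log2 fold change of Mt2a between -0.56 and 0.052. In the same fits log2 fold changes ran between -0.16 and 0.076 for Creld2, -0.018 and 0.057 for Pdia4, -0.063 and 0.12 for Atf5 and -0.38 and 0.034 for Sec61b. Signs turned only for these 4 genes and Mt2a, which passed neither before nor under the setting that turned them: Creld2 under upper quartile scaling (0.0028) and without siMt2 or siNT replicate 3, Pdia4 with no filter (-7.0e-04) and without siMt2 or siNT replicate 3, Atf5 without siMt2 or siNT replicate 2, Sec61b without siMt2 replicate 3, and Mt2a without siNT replicate 2. The cause was not tested. Depth limits the scarce genes most: Sil1, Ero1b, Edem2, Sdf2l1 and Creld2 lay between 5.06 and 24.8 CPM over all libraries.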
